A study of Mus musculus with 8 samples.

Results

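The outer upstream flank of *Ikzf1* was taken as the DpnII fragments with a midpoint from 10583520 to 11179628 on chromosome 11 of NCBI37 (mm9), 403.9 kb to 1 Mb upstream of the bait of a 4C-seq experiment. It starts 1 Mb from the bait, at 11583520, and ends at the base before *Zpbp*. It holds 1512 of the 295446 fragments listed for the chromosome, and these fragments were compared across all 6 4C libraries. The annotation of this build places 2 genes in it, *Vwc2*, from 11014226 to 11168934 on the plus strand, and a 5S rRNA gene from 11040517 to 11040646, inside *Vwc2*. Before *Vwc2*, 1079 of the fragments lie in a stretch with no annotated gene.

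The study asked which regions touch the *Ikzf1* promoter, and what happens when the enhancer IkE120 is deleted. DN3 thymocytes (CD4-, CD8-, CD44lo, CD25+) were sorted from thymuses of young wild-type c57/Bl6 mice, and the number of mice behind the library is not given in the sources used here. ES cells were of the J1 line, passaged off their feeder cells. P5424 is a mouse T cell precursor line, used as wt and as ΔIkE120 cells, which are 1 clone with IkE120 deleted on both alleles by CRISPR/Cas9. Each genotype was profiled unstimulated and after 6 h with 20 µg/ml PMA and 0.5 µg/ml ionomycin (named PMA/ionomycin cells below), and the headers of the unstimulated libraries name DMSO. SDS treatment of the nuclei was milder and cooler for ES than for lymphoid cells, so cell type and preparation cannot be told apart between ES and the other libraries. Each condition had 1 library, so there were no replicates and no p-values, and the genotype cannot be told apart from the clone.

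4C-seq counts the restriction fragments that were ligated to a bait fragment in crosslinked nuclei, and contacts become rarer with distance from the bait. *Ikzf1* encodes Ikaros, a zinc finger transcription factor needed for lymphocyte development and not expressed in ES cells. *Vwc2* encodes a secreted protein with von Willebrand factor C domains, an antagonist of BMP signalling known from the nervous system, and *Zpbp* encodes a protein of the sperm acrosome.

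The libraries held 1788106 reads in DN3, 3448437 in ES, 2025891 in wt unstimulated, 1756688 in wt PMA/ionomycin, 3943018 in ΔIkE120 unstimulated and 2721320 in ΔIkE120 PMA/ionomycin cells. Outside 15 kb of the bait, there were 1525273, 3095991, 1742231, 1526128, 3342473 and 2178345 reads, in the same order. All shares of reads below are of these reads. Intervals are exact (Clopper-Pearson) at 95% and cover counting error only, since reads include PCR copies and neighbouring fragments are not independent.

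ES cells had reads on more of the flank than any lymphoid library, and DN3 on the least. At least 1 read fell on 123 of the 1512 fragments in DN3 (8.13%, interval 6.81% to 9.63%) and on 514 in ES (34.0%, 31.6% to 36.4%). In P5424 cells, 207 fragments were covered in wt unstimulated (13.7%, 12.0% to 15.5%) and 173 in wt PMA/ionomycin cells (11.4%, 9.88% to 13.2%). In ΔIkE120 cells, 232 were covered unstimulated (15.3%, 13.6% to 17.3%) and 237 stimulated (15.7%, 13.9% to 17.6%). The interval of ES lay above those of all 5 lymphoid libraries. That of DN3 lay below those of all 4 P5424 libraries, though its upper end of 9.63% was close to the 9.88% of wt PMA/ionomycin cells. With 1 library per condition and neighbouring fragments not independent, the intervals describe these libraries and do not measure the spread between samples of a condition. Over chromosome 11 outside 15 kb of the bait, the covered share was 2.57% in DN3, 3.47% in ES, 2.21% in wt unstimulated, 1.86% in wt PMA/ionomycin, 2.32% in ΔIkE120 unstimulated and 2.48% in ΔIkE120 PMA/ionomycin cells. Every library was thus covered more densely in the flank than over the chromosome, and the order of the libraries differed, since DN3 was next to ES over the chromosome and last in the flank.

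The order of the libraries was the same after thinning to equal reads, a step that could change little. Covered fragments held medians of 29 reads in DN3 to 73 in wt PMA/ionomycin cells, PCR copies included, so thinning seldom emptied one. In ES, 491.7 of the 514 covered fragments were expected to remain. Thinning therefore equalises reads and not the number of ligated fragments that were sampled. With every library thinned to the 1525273 reads of DN3, the expected covered share of the flank was 32.5% in ES, 13.6% in wt unstimulated, 11.4% in wt PMA/ionomycin, 14.6% in ΔIkE120 unstimulated and 15.3% in ΔIkE120 PMA/ionomycin cells, against 8.13% in DN3. The thinned share of ES was 4.00 times that of DN3 and from 2.12 to 2.84 times those of the P5424 libraries.

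Reads gave the same extremes, ES at the top and DN3 at the bottom. The flank took 12588 reads in DN3 (0.825%, 0.811% to 0.840%) and 146481 in ES (4.73%, 4.71% to 4.76%). It took 42268 reads in wt unstimulated (2.43%), 38157 in wt PMA/ionomycin (2.50%), 59191 in ΔIkE120 unstimulated (1.77%) and 52782 in ΔIkE120 PMA/ionomycin cells (2.42%). By reads, ΔIkE120 unstimulated cells were the lowest of the P5424 libraries, whereas wt PMA/ionomycin cells were the lowest by covered fragments. The read share of ES was 5.73 times that of DN3.

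Few fragments carried most of these reads in DN3 and wt unstimulated cells. It took 10 fragments to reach 50% of the flank's reads in DN3, 46 in ES, 10 in wt unstimulated, 15 in wt PMA/ionomycin, 20 in ΔIkE120 unstimulated and 27 in ΔIkE120 PMA/ionomycin cells. The 10 fragments with the most reads held 51.6% of the flank's reads in DN3 and 51.2% in wt unstimulated cells, but 16.7% in ES. These libraries had 123, 207 and 514 covered fragments, in the same order. A fixed number of fragments is thus a larger part of the covered ones in DN3 than in ES. A covered fragment had a median of 29 reads in DN3, 70 in ES, 33 in wt unstimulated, 73 in wt PMA/ionomycin, 49.5 in ΔIkE120 unstimulated and 69 in ΔIkE120 PMA/ionomycin cells. Per 1 M reads outside 15 kb of the bait, the medians were 19.0 in DN3 and 22.6 in ES. They were 18.9 and 47.8 in the wt and 14.8 and 31.7 in the ΔIkE120 libraries, unstimulated and stimulated. Fewer than 10 reads were found on 40 of the covered fragments in DN3, 121 in ES, 54 and 49 in the wt libraries and 51 and 53 in the ΔIkE120 libraries, unstimulated and stimulated.

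The same distances on the other side of the bait, from 11987412 to 12583520, hold 1496 fragments and served as the mirrored flank. The choice of this comparison as a ratio was made after the data were seen. There, 81 fragments were covered in DN3 (5.41%), 764 in ES (51.1%), 123 in wt unstimulated (8.22%), 66 in wt PMA/ionomycin (4.41%), 230 in ΔIkE120 unstimulated (15.4%) and 253 in ΔIkE120 PMA/ionomycin cells (16.9%). DN3 and wt P5424 cells were covered more on the *Vwc2* side, ES cells more on the downstream side, and ΔIkE120 cells about alike on both. The ratio of the covered shares, upstream to downstream, was 1.50 in DN3 (interval from the counts 1.15 to 1.97), 1.67 in wt unstimulated (1.35 to 2.06) and 2.59 in wt PMA/ionomycin cells (1.97 to 3.41). It was 0.998 in ΔIkE120 unstimulated (0.844 to 1.18), 0.927 in ΔIkE120 PMA/ionomycin (0.788 to 1.09) and 0.666 in ES cells (0.611 to 0.725).

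Within P5424 cells, most of the spread in this ratio was on the downstream side, where the covered share ran from 4.41% to 16.9%, against 11.4% to 15.7% in the upstream flank. In reads, the wt libraries again had more upstream, with 2.43% against 1.11% unstimulated and 2.50% against 1.13% stimulated. ΔIkE120 cells had 1.77% against 1.82% unstimulated and 2.42% against 2.24% stimulated. The difference between genotypes was not tested, with 1 clone and 1 library per condition.

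Farther from the bait, from 1 Mb to 2 Mb upstream, DN3 did not fall off as the other libraries did. Of the 2712 fragments there, 247 were covered in DN3 (9.11%, 8.05% to 10.3%), 409 in ES (15.1%), 171 in wt unstimulated (6.31%), 94 in wt PMA/ionomycin (3.47%), 153 in ΔIkE120 unstimulated (5.64%) and 163 in ΔIkE120 PMA/ionomycin cells (6.01%). The ratio of the flank to this farther stretch was 0.893 in DN3 (0.726 to 1.10), an interval that includes 1, and from 2.17 to 3.30 in the other 5 libraries. By reads, DN3 had 1.79% there, more than the 0.825% of the flank, though the farther stretch is also longer. Per fragment, covered or not, DN3 had 10.1 reads there and 8.33 in the flank. Toward the bait, between the flank and 15 kb from it, from 47.6% of the fragments in wt PMA/ionomycin to 63.8% in ES cells were covered, with DN3 at 54.1%.

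Coverage of the flank was not even, and it was densest at its inner end. In the innermost block, from 11083520 to 11179628, 58 of 222 fragments were covered in DN3 (26.1%), 150 in ES (67.6%), 93 in wt unstimulated (41.9%), 70 in wt PMA/ionomycin (31.5%), 75 in ΔIkE120 unstimulated (33.8%) and 76 in ΔIkE120 PMA/ionomycin cells (34.2%). In the outermost block of 100 kb, from 10583520 to 10683519, 14 of 237 were covered in DN3 (5.91%), 59 in ES (24.9%), 18 in wt unstimulated (7.59%), 14 in wt PMA/ionomycin (5.91%), 21 in ΔIkE120 unstimulated (8.86%) and 20 in ΔIkE120 PMA/ionomycin cells (8.44%). All 6 libraries were thus higher at the inner end, where from 34.6% of the flank's reads in wt unstimulated to 42.9% in wt PMA/ionomycin cells were found. Every fragment of the innermost block has an end of 32 bases that occurs once in the genome, against 86.5% of the outermost. Among such fragments of the outermost block, 6.83% were covered in DN3, 28.3% in ES, 8.78% and 6.83% in wt and 10.2% and 9.27% in ΔIkE120 cells, unstimulated and stimulated. These remained below the innermost block.

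Between these ends DN3 had a trough that the other libraries did not share to that degree. From 10883520 to 10983519, 4 of 260 fragments were covered in DN3 (1.54%, 0.421% to 3.89%), with 157 reads, 1.25% of its reads in the flank. In the same block, the covered share was 28.5% in ES, 7.31% in wt unstimulated, 8.46% in wt PMA/ionomycin, 10.0% in ΔIkE120 unstimulated and 11.9% in ΔIkE120 PMA/ionomycin cells. The outermost 100 kb took 22.0% of the DN3 reads in the flank, against 3.82% to 9.62% in the other libraries. These DN3 reads rested on few fragments. Of 2772, the 20 kb from 10603520 held 1135 on 3 covered fragments and the 20 kb from 10663520 held 1064 on 4. By covered share, DN3 was not raised there, at 5.91%, the same as in wt PMA/ionomycin cells. The longest distance without a covered fragment in DN3 was 42.5 kb, between the midpoints 10860227 and 10902765, against 16.7 kb in ES and from 21.4 kb in wt unstimulated to 31.8 kb in wt PMA/ionomycin cells in the P5424 libraries.

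Covered fragments were also found side by side. The next fragment toward the bait was covered for 17.1% of the covered fragments in DN3, 48.0% in ES, 30.4% in wt unstimulated, 22.5% in wt PMA/ionomycin, 27.2% in ΔIkE120 unstimulated and 22.8% in ΔIkE120 PMA/ionomycin cells. Coverage itself varied along the flank, and the covered share of the 100-kb block around a covered fragment averaged 15.6% in DN3, 41.4% in ES, 24.0% in wt unstimulated, 18.1% in wt PMA/ionomycin, 20.6% in ΔIkE120 unstimulated and 20.8% in ΔIkE120 PMA/ionomycin cells. The shares with a covered neighbour were above these by little in DN3 and ΔIkE120 PMA/ionomycin cells and by more in the other 4 libraries. The longest run of covered neighbours was 4 fragments in DN3, 11 in ES, 6 in wt unstimulated and 5 in each of the other 3 libraries.

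*Vwc2* was covered more densely than the gene-free stretch before it in every library. Of the 418 fragments that overlap an exon of the gene or have their midpoint inside it, 72 were covered in DN3 (17.2%), 219 in ES (52.4%), 113 in wt unstimulated (22.8% to 31.6% by its interval), 91 in wt PMA/ionomycin (21.8%), 111 in ΔIkE120 unstimulated (26.6%) and 107 in ΔIkE120 PMA/ionomycin cells (25.6%). Of the 1079 fragments before the gene, 47 were covered in DN3 (4.36%), 282 in ES (26.1%), 88 in wt unstimulated (8.16%), 77 in wt PMA/ionomycin (7.14%), 112 in ΔIkE120 unstimulated (10.4%) and 123 in ΔIkE120 PMA/ionomycin cells (11.4%). The gene is also the part nearer to the bait, so gene and distance cannot be told apart here.

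Inside *Vwc2*, which is transcribed toward the bait, coverage was lower at the start of the gene than at its end in every library. In the first 38.7 kb, from 11014226 to 11052902, 9 of 138 fragments were covered in DN3 (6.52%), 40 in ES (29.0%), 10 in wt unstimulated (7.25%), 13 in wt PMA/ionomycin (9.42%), 26 in ΔIkE120 unstimulated (18.8%) and 22 in ΔIkE120 PMA/ionomycin cells (15.9%). In the last 38.7 kb, from 11130257 to 11168934, the counts were 26 of 82 in DN3 (31.7%), 59 in ES (72.0%), 45 in wt unstimulated (54.9%), 33 in wt PMA/ionomycin (40.2%), 32 in ΔIkE120 unstimulated (39.0%) and 28 in ΔIkE120 PMA/ionomycin cells (34.1%). Only 59.4% of the fragments of the first stretch have an end of 32 bases that occurs once in the genome, against all of those in the last. Over 4 stretches of this length, and among fragments with such a unique end, the covered share rose from each to the next in 4 libraries. It was 12.2%, 24.4%, 34.0% and 54.9% in wt unstimulated, 15.9%, 17.8%, 26.2% and 40.2% in wt PMA/ionomycin and 48.8%, 57.8%, 63.1% and 72.0% in ES cells. In DN3, 9 of 82, 12 of 90, 25 of 103 and 26 of 82 such fragments were covered. ΔIkE120 cells had no steady rise, with 31.7%, 25.6%, 29.1% and 39.0% unstimulated and 26.8%, 21.1%, 35.0% and 34.1% with PMA/ionomycin. The difference between genotypes was not tested.

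The fragments at the start of *Vwc2* held few reads in DN3 and wt unstimulated cells. Of the 4 fragments within 1 kb of 11014226, those from 11013005 to 11013500, from 11013501 to 11014602, which contains the annotated start, and from 11014603 to 11014868 held at most 41 reads in any library. The fragment from 11014869 to 11016404, which overlaps an exon, had 624 reads in ES, 304 in wt PMA/ionomycin, 2398 in ΔIkE120 unstimulated and 487 in ΔIkE120 PMA/ionomycin cells. DN3 and wt unstimulated cells had 0 reads on all 4 fragments, which allows up to 3 reads each. Exons of *Vwc2* overlap 15 fragments, of which 4 were covered in DN3, 12 in ES, 5 in wt unstimulated, 4 in wt PMA/ionomycin, 10 in ΔIkE120 unstimulated and 6 in ΔIkE120 PMA/ionomycin cells.

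Past the inner border of the flank, where *Zpbp* begins, the covered share fell, but fewer of the fragments there have a unique end. In the last 20 kb of the flank, 9 of 29 fragments were covered in DN3 (31.0%) and 24 in ES (82.8%), against 11 of 67 (16.4%) and 31 of 67 (46.3%) in the next 20 kb. All 29 fragments inside have a unique end, but 39 of the 67 outside. Of those 39, 28.2% were covered in DN3, 76.9% in ES, 28.2% in wt unstimulated, 23.1% in wt PMA/ionomycin, 33.3% in ΔIkE120 unstimulated and 35.9% in ΔIkE120 PMA/ionomycin cells. In all 6 libraries these remained below the values inside, on these small numbers of fragments. For the P5424 libraries, the values inside were 44.8% in wt unstimulated, wt PMA/ionomycin and ΔIkE120 PMA/ionomycin and 51.7% in ΔIkE120 unstimulated cells.

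In tiles of 20 kb laid from the start of the flank, which makes 30 tiles, all 30 had reads in 2 or more lymphoid libraries and 0 had reads in ES alone. Of the 5941 such tiles of chromosome 11, 58.6% had reads in 2 or more lymphoid libraries and 5.17% in ES alone. Reads in all 5 lymphoid libraries were found in 24 of the 30 tiles, and in 4 libraries in the other 6. At this tile size, presence of reads therefore did not separate the tiles. DN3 together with a P5424 library had reads in 26 of the 30 tiles, against 41.2% over the chromosome. DN3 had no reads in the remaining 4 tiles, which start at 10783520, 10863520, 10903520 and 10963520, and 0 reads allow up to 3 of its 1525273. In these 4 tiles, ES had 3368, 3703, 1453 and 8546 reads. The tile from 10663520 had no reads in wt PMA/ionomycin cells, and that from 10703520 none in ΔIkE120 PMA/ionomycin cells.

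Tiles differed widely in reads. The lowest, median and highest tile had 0, 177.5 and 1585 reads in DN3, and 596, 3535.5 and 15261 in ES. In wt cells they had 14, 617 and 8173 unstimulated and 0, 813 and 4716 stimulated. In ΔIkE120 cells they had 83, 1471 and 8437 unstimulated and 0, 1501.5 and 7263 stimulated. The tile from 11143520 to 11163519, in *Vwc2*, was the highest in ES, both wt libraries and ΔIkE120 unstimulated cells. The highest in DN3 was the one before it, from 11123520, and in ΔIkE120 PMA/ionomycin cells that from 11103520.

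The tile from 11143520 to 11163519 also led by the mean share of reads over the lymphoid libraries. It held 1353 reads in DN3, 15261 in ES, 8173 in wt unstimulated, 4716 in wt PMA/ionomycin, 8437 in ΔIkE120 unstimulated and 4723 in ΔIkE120 PMA/ionomycin cells, or 0.0887%, 0.493%, 0.469%, 0.309%, 0.252% and 0.217% of the reads. Of its 38 fragments, 12 were covered in DN3, 30 in ES, 27 in wt unstimulated, 14 in wt PMA/ionomycin, 17 in ΔIkE120 unstimulated and 12 in ΔIkE120 PMA/ionomycin cells. Here wt unstimulated cells, at 71.1% of fragments, came near ES, at 78.9%, while the other lymphoid libraries were between 31.6% and 44.7%.

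The tile from 11123520 to 11143519 came next, with 1585 reads in DN3, 8826 in ES, 2456 in wt unstimulated, 4159 in wt PMA/ionomycin, 5122 in ΔIkE120 unstimulated and 2455 in ΔIkE120 PMA/ionomycin cells. That from 11103520 to 11123519 had 121 reads in DN3, 12008 in ES, 1492 and 2601 in the wt libraries and 4625 and 7263 in the ΔIkE120 libraries, unstimulated and stimulated. DN3 had the fewest reads in both, and by far in the latter, with 9 of 58 fragments covered, whereas in the former it covered 14 of 48, against 13 in ΔIkE120 unstimulated cells. The tile from 11083520 to 11103519 had 987 reads in DN3, 9842 in ES, 1894 and 2320 in wt and 4849 and 4574 in ΔIkE120 cells. At the start of *Vwc2*, that from 11003520 to 11023519 had 234 reads in DN3, 6862 in ES, 2062 and 850 in wt and 4056 and 3655 in ΔIkE120 cells.

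Of the 6 leading tiles, 1 lay far from *Vwc2*, from 10683520 to 10703519. It had 796 reads in DN3, 1273 in ES, 3319 in wt unstimulated, 2167 in wt PMA/ionomycin, 984 in ΔIkE120 unstimulated and 966 in ΔIkE120 PMA/ionomycin cells. As a share of reads, ES, at 0.0411%, was lower here than wt unstimulated (0.191%), wt PMA/ionomycin (0.142%), DN3 (0.0522%) and ΔIkE120 PMA/ionomycin cells (0.0443%), and higher than ΔIkE120 unstimulated cells (0.0294%). These reads rested on few of its 65 fragments, 5 in DN3, 14 in ES, 7 in wt unstimulated, 3 in wt PMA/ionomycin, 1 in ΔIkE120 unstimulated and 4 in ΔIkE120 PMA/ionomycin cells, so that ES still covered the most.

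Across the 30 tiles, the covered share of ES and that of each P5424 library ran together more closely than reads did. Spearman's rho of the covered shares, over tiles that share libraries, repeats and distance to the bait, was from 0.752 to 0.794 between ES and the P5424 libraries, and 0.465 between ES and DN3. Among the P5424 libraries it was from 0.668 to 0.775, and between DN3 and them from 0.360 to 0.583. For reads, the values were from 0.240 to 0.649 between ES and the P5424 libraries and from 0.196 to 0.624 among the latter.

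Single fragments separated the libraries where tiles did not, and these counts were chosen after the data were seen. Of the 1512 fragments, 728 had reads in no library and 784 in at least 1. Reads in 2 or more lymphoid libraries were found on 257 (17.0%, 15.1% to 19.0%), against 1.61% over the chromosome. Reads in DN3 and a P5424 library were found on 80 (5.29%, 4.22% to 6.54%), against 0.858%. Counted from 10 reads, the 80 were 52. Without ΔIkE120 unstimulated cells the 257 were 171, by construction with fewer libraries. ES alone had reads on 186 (12.3%, 10.7% to 14.1%), against 2.24%. In the mirrored flank, 178 of 1496 fragments (11.9%) had reads in 2 or more lymphoid libraries, 45 (3.01%) in DN3 and a P5424 library, and 383 (25.6%) in ES alone. Fragments of several lymphoid libraries were thus more frequent in the flank than in its mirror, and those of ES alone less frequent. All 3 shares were above those of the chromosome on both sides.

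The more lymphoid libraries had reads on a fragment, the more often ES did. ES had reads on 186 of the 914 fragments with no lymphoid reads (20.4%), on 164 of 341 with reads in 1 lymphoid library (48.1%), on 87 of 166 with 2 (52.4%), on 55 of 67 with 3 (82.1%), on 20 of 22 with 4 and on both with 5. Among the 257 fragments of 2 or more lymphoid libraries, 93 had no ES reads. The libraries have repeats, distance and fragment lengths in common, and the part of these was not tested.

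Each lymphoid library shared more of its fragments with ES, which covered 34.0% of the whole flank, than with another lymphoid library. ES covered 78 of the 123 fragments of DN3 (63.4%), 135 of the 207 of wt unstimulated (65.2%), 107 of the 173 of wt PMA/ionomycin (61.8%), 133 of the 232 of ΔIkE120 unstimulated (57.3%) and 140 of the 237 of ΔIkE120 PMA/ionomycin cells (59.1%). The unstimulated and stimulated wt libraries shared 54 fragments, 26.1% of the former and 31.2% of the latter. The ΔIkE120 libraries shared 74, 31.9% of the unstimulated and 31.2% of the stimulated. The unstimulated libraries of both genotypes shared 73, 35.3% of wt and 31.5% of ΔIkE120. The parts shared within a genotype, from 26.1% to 31.9%, thus lay within the range of those shared between genotypes, from 23.7% to 35.3%. DN3 shared 38 fragments with wt unstimulated, 34 with wt PMA/ionomycin, 29 with ΔIkE120 unstimulated and 37 with ΔIkE120 PMA/ionomycin cells, from 23.6% to 30.9% of its own. Divided by the partner's covered share of the flank, the shared part was from 1.69 to 1.92 times with ES, at least 2.03 times between P5424 libraries and from 1.54 to 2.42 times between DN3 and the P5424 libraries, but these ratios include the rise of coverage toward the bait that the libraries share.

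The part shared with ES was lower in the gene-free stretch than in *Vwc2*, where ES covered more fragments. Within *Vwc2*, ES covered 69.4% of the DN3 fragments and from 69.4% to 78.8% of those of the P5424 libraries, where it covered 52.4% of all fragments. Before the gene, it covered 51.1% of the DN3 fragments and from 42.0% to 46.8% of those of the P5424 libraries, where it covered 26.1% of all fragments. Divided by the partner's covered share of the same part, the shared part within *Vwc2* was from 1.32 to 1.50 times with ES, from 1.52 to 1.70 times between P5424 libraries and from 0.837 to 1.53 times between DN3 and the P5424 libraries. Before the gene, it was from 1.61 to 1.95, from 1.50 to 2.09 and from 1.49 to 2.09 times, so that the ranges overlap there.

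Fragments of ES alone lay mostly before *Vwc2*, 136 of 186 (73.1%), with 48 in the gene and 2 between it and *Zpbp*. This share is close to the 71.4% of all fragments of the flank that lie there. Of the 328 fragments that ES shared with a lymphoid library, 146 lay before *Vwc2* (44.5%), and of the 164 shared with 2 or more, 44 (26.8%). ES-alone fragments had a median of 52 ES reads, against 78 for the shared ones, and held 29.0% of the ES reads of the flank. Fewer than 10 ES reads were found on 49 of them and 100 or more on 74.

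Only 2 fragments had reads in all 6 libraries, both in introns of *Vwc2*. They are 0.132% of the flank (0.0160% to 0.477%), against 0.245% over the chromosome and 0.0668% in the mirrored flank. The share of the chromosome includes the stretch nearer to the bait, from *Zpbp* to 15 kb from it, which holds 413 of the 725 such fragments. From 1 Mb to 2 Mb upstream, there was 1 (0.0369%). The fragment from 11145511 to 11146089, 437.7 kb from the bait, had 255 reads in DN3, 2939 in ES, 525 in wt unstimulated, 278 in wt PMA/ionomycin, 848 in ΔIkE120 unstimulated and 706 in ΔIkE120 PMA/ionomycin cells. The fragment from 11058456 to 11058702, 524.9 kb from the bait, had 62 reads in DN3, 136 in ES, 52 in wt unstimulated, 6 in wt PMA/ionomycin, 26 in ΔIkE120 unstimulated and 5 in ΔIkE120 PMA/ionomycin cells. The former was high in ES and had at least 255 reads in every library, while the latter was low in both stimulated libraries.

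Reads in 4 or more lymphoid libraries were found on 24 fragments (1.59%), against 0.345% over the chromosome and 0.468% in the mirrored flank. Introns of *Vwc2* hold 26.7% of the fragments of the flank. Reads in exactly 4 lymphoid libraries were found on 22 fragments, of which 11 had reads in DN3 and 16 lie in introns of *Vwc2*. The 4 of them with the highest mean read share over the lymphoid libraries had reads in the 4 P5424 libraries and ES and 0 in DN3, and lie in introns. From 11136461 to 11137625, there were 946 reads in ES, 200 in wt unstimulated, 1342 in wt PMA/ionomycin, 3429 in ΔIkE120 unstimulated and 787 in ΔIkE120 PMA/ionomycin cells, the most on any fragment of the flank in ΔIkE120 unstimulated cells. From 11108976 to 11109858, there were 2892 in ES, 47 and 1034 in wt and 674 and 1724 in ΔIkE120 cells, unstimulated and stimulated. On both, wt unstimulated cells were the lowest of the libraries with reads. From 11039954 to 11040188, there were 532 in ES, 24 and 325 in wt and 1090 and 709 in ΔIkE120 cells. From 11144479 to 11145510, the neighbour of the fragment shared by all 6 libraries, there were 1417 in ES, 183 and 260 in wt and 1 and 689 in ΔIkE120 cells. Here ΔIkE120 unstimulated cells had a single read.

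The fragments with the most reads of a library, given here for 4 libraries besides ΔIkE120 unstimulated cells, were often empty elsewhere. That of DN3, from 10741153 to 10741194 and 842.3 kb from the bait, had 1177 reads, 9.35% of the DN3 reads of the flank, and 0 in each of the other 5 libraries. That of wt unstimulated cells, from 10820654 to 10822628, had 2615 reads there, 898 in ES and 0 in the other 4. Both lie in the gene-free stretch. That of wt PMA/ionomycin cells, from 11159442 to 11159463 in an intron of *Vwc2*, had 2395 reads there, 1622 in ΔIkE120 unstimulated, 1055 in ES, 1 in wt unstimulated and 0 in DN3 and ΔIkE120 PMA/ionomycin cells. That of ES, from 11176714 to 11177634 between *Vwc2* and *Zpbp*, had 3246 reads there, 820 in ΔIkE120 unstimulated, 102 in wt unstimulated and 0 in the other 3.

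Named after their values were seen, the 5 fragments of ES alone with the most reads held from 1545 to 2182 ES reads. They run from 11034064 to 11034713, from 11084392 to 11084703 and from 11069193 to 11069635 in introns of *Vwc2*, and from 10960886 to 10961454 and from 10800905 to 10802108 before the gene. Each has at least 1 Csp6I site and both ends unique in the genome.

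The sequences of 4 of these fragments, each of at most 300 bases, are given to show what a covered fragment looks like with and without a site of the second enzyme. They are from the plus strand of mm9 and include the DpnII site of the next fragment. Capitals mark DpnII (GATC) and Csp6I (GTAC) sites. The first was covered in all 6 libraries, the next in ES and the 4 P5424 libraries, and the others had the most reads of the flank in DN3 and in wt PMA/ionomycin cells.
chr11:11058456-11058706: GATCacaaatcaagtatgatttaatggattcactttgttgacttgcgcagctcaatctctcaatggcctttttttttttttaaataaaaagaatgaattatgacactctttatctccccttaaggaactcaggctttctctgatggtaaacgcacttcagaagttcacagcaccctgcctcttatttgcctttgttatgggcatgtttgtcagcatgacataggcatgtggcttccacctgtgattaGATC
chr11:11039954-11040192: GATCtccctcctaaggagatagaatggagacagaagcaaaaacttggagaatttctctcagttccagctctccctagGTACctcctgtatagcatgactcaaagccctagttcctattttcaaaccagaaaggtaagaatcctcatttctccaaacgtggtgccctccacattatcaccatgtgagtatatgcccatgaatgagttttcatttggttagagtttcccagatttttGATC
chr11:10741153-10741198: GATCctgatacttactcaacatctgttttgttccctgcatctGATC
chr11:11159442-11159467: GATCagagggaaactctctggaGATC
Of these 4 fragments, 1 holds a Csp6I site and 3 do not, and the DN3 and wt PMA/ionomycin fragments are 42 and 22 bases long.

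Fragments without a unique end were seldom covered in any library. Over its first 32 bases, a read from such an end has no single place in the genome, so these shares do not measure contacts. At least 1 unique end of 32 bases was found on 1226 of the 1512 fragments (81.1%), against 91.3% over the chromosome and 81.4% in the mirrored flank. Of the 286 without one, 0 were covered in DN3, with an upper limit of 1.28%, and in the other libraries the share was at most 1.75%, the value of ES. Among the 1226, the covered share was 10.0% in DN3, 41.5% in ES, 16.8% in wt unstimulated, 14.0% in wt PMA/ionomycin, 18.8% in ΔIkE120 unstimulated and 19.1% in ΔIkE120 PMA/ionomycin cells, with the libraries in the same order as before. Of the 728 fragments with no reads in any library, 276 had no unique end.

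Fragments over 800 bases were covered more often than those up to 50, though the intervals of DN3 overlap and the classes between did not rise steadily in every library. From 1 to 50 bases, 6.05% were covered in DN3, 20.9% in ES, 7.44% in wt unstimulated, 5.12% in wt PMA/ionomycin, 9.77% in ΔIkE120 unstimulated and 8.37% in ΔIkE120 PMA/ionomycin cells. Over 800 bases, the shares were 9.60%, 48.0%, 20.2%, 22.2%, 20.7% and 21.2%, in the same order. The median length was 249 bases over the flank, 348 for fragments of 2 or more lymphoid libraries, 329 for those of ES alone and 178 for those of no library. By the median, fragments of several lymphoid libraries and of ES alone were thus alike in length, and both longer than those without reads.

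A Csp6I site was found on 676 fragments (44.7%), close to the 44.5% of the chromosome. With unique ends only, the covered share with and without a site was 10.8% and 9.33% in DN3, 47.2% and 36.4% in ES, 16.3% and 17.3% in wt unstimulated and 16.0% and 12.3% in wt PMA/ionomycin cells. In ΔIkE120 cells, it was 18.5% and 19.0% unstimulated and 21.8% and 16.6% stimulated. The share was higher with a site in ES, and also in DN3 and both stimulated P5424 libraries, where the intervals with and without overlap. In the unstimulated ones it was slightly lower with a site. GC content differed little, with a median of 39.7% for fragments of 2 or more lymphoid libraries, 38.6% for ES alone and 39.3% for those of no library, against 44.0% over the chromosome.

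H3K27ac, a histone mark of active promoters and enhancers, was profiled in 1 wt and 1 ΔIkE120 P5424 library, and the deposited peaks are in GRCm38 (mm10), so they were placed by genes of RefSeq on that build and not by 4C coordinates. Between *Abca13*, a gene farther upstream, and *Zpbp*, from 9684872 to 11279623, the wt list held 1 peak and the ΔIkE120 list 0. Chromosome 11 had 26.5 peaks per Mb in wt and 23.3 in ΔIkE120 cells. The wt peak ran from 11256550 to 11256813, inside *Vwc2* (11113868 to 11269295), with the authors' fold enrichment of 3.19 and a -log10 q of 2.25. The medians of the wt list were 3.04 for the fold enrichment and 4.12 for the -log10 q, and 21.4% of its peaks had a lower -log10 q than this one. Within 1 kb of the start of *Vwc2*, at 11113868, neither list had a peak. The labels do not say whether these cells were stimulated. The depth of these libraries is unknown, so the absence of a peak says only that none was called.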

How the data were processed

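The 4C-seq values are raw read counts per chromosome 11 DpnII fragment, deposited with no scaling after the authors removed the bait part of each read (Sabre) and aligned the rest to mm9. For H3K27ac, the authors deposited broad peak lists in GRCm38 with a score, a fold enrichment, and the -log10 of p and q. The submitters' processing notes name Bowtie 1.0.0, Bowtie2 2.3.4.3, MACS2 2.1.1 and deepTools 3.2.1. Of the 295446 positions, all matched a DpnII fragment midpoint. Fragments within 15 kb of the bait were left out of all shares. A fragment was covered from 1 read. Thinning used the exact hypergeometric expectation, tested on simulated data. The intervals of ratios are log-normal approximations from the counts. Unique ends were counted as 32-base matches over both strands of the genome. Genes were from GENCODE M1. Groups came from the labels. The named items were all annotated genes, the 6 tiles and 6 fragments with reads in the most lymphoid libraries, ranked by mean read share, up to 5 tiles of ES alone and the fragment with the most reads per library, of which 1 is not reported here. The members and lists were chosen with earlier results of these data known. Alternatives were read minima, thinning, unique ends, Csp6I fragments, read denominators, capping, and the size and place of tiles. Values were computed in Python 3.11.15 with scipy 1.17.1, pandas 2.3.3 and numpy 2.4.6.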

Additional observations from a re-analysis of the deposited data

Results flagged for a closer look

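By covered fragments, the flank moved in opposite directions with PMA/ionomycin in the 2 genotypes of P5424 cells, each from 1 library per state. The covered share fell by 2.25 percentage points in wt cells and was 0.331 points higher in ΔIkE120 cells. The latter is a change from 232 to 237 fragments. Thinned to equal reads, it fell by 2.12 points in wt and was 0.686 points higher in ΔIkE120 cells. With Csp6I fragments only, the sizes of these changes were different. The covered share then went from 14.05% to 13.91% in wt and from 15.98% to 19.08% in ΔIkE120 cells. The flank's share of reads was higher with PMA/ionomycin in both, by 0.0742 points in wt and 0.652 points in ΔIkE120 cells, but with reads capped at the 99th percentile it fell from 2.73% to 2.66% in wt and rose from 1.94% to 2.58% in ΔIkE120 cells. The median number of reads on a covered fragment was 16.5 higher in ΔIkE120 than in wt cells when unstimulated, and the difference was -4.0 when stimulated. These are raw reads of libraries of unequal depth. Per 1 M reads outside 15 kb of the bait, the median was 18.9 in wt and 14.8 in ΔIkE120 cells unstimulated and 47.8 and 31.7 stimulated, lower in ΔIkE120 cells in both states. None of these differences between genotypes was tested, and the intervals of the covered shares overlap within each genotype.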

How the results depend on the processing

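For the covered share, the count of a fragment from 2 reads and the thinning to equal reads moved no library beyond its interval. Thinning could move little, since most covered fragments held many reads. From 10 reads, the shares were 5.49% in DN3, 26.0% in ES, 10.1% in wt unstimulated, 8.20% in wt PMA/ionomycin, 12.0% in ΔIkE120 unstimulated and 12.2% in ΔIkE120 PMA/ionomycin cells. With unique ends only, they were 10.0%, 41.5%, 16.8%, 14.0%, 18.8% and 19.1%, in the same order, from a smaller number of fragments. With Csp6I fragments only, they moved to 40.8% in ES, 13.9% in wt PMA/ionomycin and 19.1% in ΔIkE120 PMA/ionomycin cells. ES was highest and DN3 lowest under each of these.

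The read share, out of the reads from 15 kb to 1 Mb only, was 1.32% in DN3, 8.06% in ES, 3.95% in wt unstimulated, 4.82% in wt PMA/ionomycin, 2.76% in ΔIkE120 unstimulated and 4.14% in ΔIkE120 PMA/ionomycin cells. Capped at the 99th percentile, it was 0.914%, 5.03%, 2.73%, 2.66%, 1.94% and 2.58%, so that the wt libraries changed places. Without the top fragment, it was 0.749%, 4.63%, 2.28%, 2.35%, 1.67% and 2.31%. By the first and the last of these settings, wt unstimulated cells were below ΔIkE120 PMA/ionomycin cells, to which they are close in the main one. The cause of these shifts was not tested beyond what each setting leaves out.

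The counts of tiles kept within 1.5 times under all their alternatives, and 0 tiles were of ES alone in each. Chosen after seeing the data, the ratios to the mirrored flank moved beyond their intervals under none of the 4 alternatives tried. The 80 fragments of DN3 and a P5424 library were 52 from 10 reads. The 257 fragments of 2 or more lymphoid libraries were from 171 to 220 with 1 library left out, the lowest without ΔIkE120 unstimulated cells, by construction with fewer libraries. Of 106 alternative values, each set against its own reported value, 71 were close to it and 35 moved. These counts do not hold changes of order between libraries. No paired analysis was run, and no comparison came from a test. Values of both genotypes are given side by side within each state.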
